A study of Mus musculus with 20 samples.

Results

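Dbp, Tef, Hlf, Nfil3, Ciart, Bhlhe40, Bhlhe41 and Usp2 are clock-controlled output genes of the liver, and they were taken here by name as a set of 8 among the 45306 genes of the table. Liver RNA was sequenced from 20 C57BL/6 mice, each giving 1 library, and the 4 groups held 5 mice apiece. Control mice were wild type and stayed in temperature-controlled housing without the cold. Mice of the CE group were wild type and were put at 4 °C for 3 h per day over 3 weeks. Sirt2-/- mice came from fertilized eggs in which CRISPR-Cas9 was aimed at exons 5 to 7 of Sirt2, so that the change was in every tissue and not only in the liver, and Sirt2-/-/CE mice had both this genotype and the cold schedule. Mice of both genotypes were 5 weeks old when they were divided into these groups. Lights were on for 12 h of the day from 8 a.m. The hour at which the livers were taken, the sex of these mice and the number of founders of the line are not given in the sources used here. All groups share the strain, the housing and the bulk preparation of whole liver, in which fewer cells of a type and less RNA per cell cannot be told apart. The labels call the libraries separate samples without naming litters or batches, so p-values measure the spread between these samples.

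In the circadian clock of the liver, the activators CLOCK and BMAL1 (the product of Arntl) bind E-boxes, with the core letters CACGTG, and switch on output genes as well as their own repressors, the PER and CRY proteins and the REV-ERBs (Nr1d1 and Nr1d2). Dbp, Tef and Hlf encode the 3 PAR bZIP activators, which bind D-boxes and drive genes of xenobiotic and lipid metabolism in a daily rhythm, whereas Nfil3 encodes a bZIP repressor that binds the same sites. Ciart (CHRONO), Bhlhe40 (DEC1) and Bhlhe41 (DEC2) encode repressors of CLOCK and BMAL1. Usp2 encodes a ubiquitin-specific protease under clock control and is not a transcription factor. Most of these transcripts rise and fall within a day, in a phase opposite to Arntl, so that their level in a single sample depends on the hour.

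In GENCODE release vM21 on GRCm38, the assembly also called mm10, Dbp (ENSMUSG00000059824) lies at chr7:45705088-45710203 on the plus strand, with 4 merged exons. Tef (ENSMUSG00000022389) lies at chr15:81802421-81826863 on the plus strand and Hlf (ENSMUSG00000003949) at chr11:90336536-90390895 on the minus strand. Nfil3 (ENSMUSG00000056749) lies at chr13:52967209-52981073, Ciart (ENSMUSG00000038550) at chr3:95878503-95882251 and Bhlhe41 (ENSMUSG00000030256) at chr6:145858243-145865558, all on the minus strand. Bhlhe40 (ENSMUSG00000030103) lies at chr6:108660629-108666925 and Usp2 (ENSMUSG00000032010) at chr9:44067021-44095627, both on the plus strand. The 539 bases at which exons of Dbp meet exons of Sphk2 on the other strand are the longest such overlap with a gene of the table, out of 2993 exon bases of Dbp. Whether the counting used strand is not given in the sources used here, so reads of that stretch cannot be told apart. Bhlhe41 shares 1280 of its 6720 exon bases with Gm43909, a gene not analysed here, and Ciart has a near-identical counterpart (95% identity over at least 150 bases) in Gm9176, likewise not analysed here.

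The region from 250 bases before to 50 bases after the transcription start was taken from RefSeq (GRCm38.p6) for 7 of the 8 genes, with 2 starts for Tef. The E-box CACGTG, which reads the same on both strands, was found in 4 of the 8 windows, those of 3 genes, and in 7.15% of the 32851 windows of all mouse genes. Ciart held 3 copies, as did 0.0883% of all windows, and its window shows how closely they stand; capitals mark CACGTG in each sequence below. The windows of Tef and Bhlhe41 are given because each window held 1 copy, and that of Dbp because its letters lacked any, although its transcript varied most between mice.
Ciart, chr3:95882179-95882478, minus strand: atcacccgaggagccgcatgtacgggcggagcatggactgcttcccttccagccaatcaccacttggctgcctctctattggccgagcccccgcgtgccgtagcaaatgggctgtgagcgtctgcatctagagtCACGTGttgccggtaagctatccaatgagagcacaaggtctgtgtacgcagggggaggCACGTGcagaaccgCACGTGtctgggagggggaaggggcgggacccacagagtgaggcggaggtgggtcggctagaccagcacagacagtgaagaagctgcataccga
Tef, chr15:81802423-81802722, plus strand: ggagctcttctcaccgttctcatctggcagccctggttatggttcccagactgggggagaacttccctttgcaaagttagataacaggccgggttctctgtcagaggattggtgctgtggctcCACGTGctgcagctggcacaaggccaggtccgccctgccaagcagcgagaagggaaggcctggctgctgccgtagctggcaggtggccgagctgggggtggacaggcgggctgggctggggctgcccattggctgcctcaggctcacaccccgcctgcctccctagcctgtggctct
Tef, chr15:81811164-81811463, plus strand: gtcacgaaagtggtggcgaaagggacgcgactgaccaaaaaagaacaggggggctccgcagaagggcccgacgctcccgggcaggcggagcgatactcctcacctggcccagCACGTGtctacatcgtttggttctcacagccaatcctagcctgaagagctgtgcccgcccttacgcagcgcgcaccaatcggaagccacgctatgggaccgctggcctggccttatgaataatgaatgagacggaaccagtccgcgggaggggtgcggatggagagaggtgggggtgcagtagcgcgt
Bhlhe41, chr6:145865371-145865670, minus strand: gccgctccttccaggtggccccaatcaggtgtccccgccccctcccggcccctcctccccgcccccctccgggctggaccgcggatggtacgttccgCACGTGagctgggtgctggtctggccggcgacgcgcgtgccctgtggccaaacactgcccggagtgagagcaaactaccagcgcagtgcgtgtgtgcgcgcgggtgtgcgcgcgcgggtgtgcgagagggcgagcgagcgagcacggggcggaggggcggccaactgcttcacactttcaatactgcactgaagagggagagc
Dbp, chr7:45704997-45705296, plus strand: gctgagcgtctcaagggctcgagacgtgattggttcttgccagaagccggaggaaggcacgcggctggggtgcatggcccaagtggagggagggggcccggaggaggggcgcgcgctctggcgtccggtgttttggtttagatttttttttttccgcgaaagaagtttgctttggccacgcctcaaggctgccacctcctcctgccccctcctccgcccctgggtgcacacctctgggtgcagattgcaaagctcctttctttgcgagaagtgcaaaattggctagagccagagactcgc
The E-boxes of Ciart began 116, 58 and 44 bases before the start site (positions -116, -58 and -44), that of Bhlhe41 at -153 and those of Tef at -127 and -138. The variant CACGTT, searched on both strands, was in 4.68% of all windows and in none of those of the output genes. The D-box, searched as TTATGTAA or TTACGTAA on both strands, was in 1.06% of all windows and in 0 of the 8. A match in these letters is a description of the window, and a missing match says only that the letters are not within it.

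Depth ranged from 35499796 to 53917339 counts per library, and all 8 genes passed the filter on low counts with 15616 genes in all. Hepatocyte markers were high in all 20 mice, with Alb at 56700 to 140000 CPM (reads of a gene scaled to a common library total). Sirt2 had 41.3 to 44.4 CPM in Control, 40.2 to 56.2 in CE, 16.9 to 27.5 in Sirt2-/- and 18.97 to 27.45 in Sirt2-/-/CE, so the ranges of the 2 genotypes did not meet; these are counts over the whole gene, not only over the exons aimed at. Its log2 fold change was -0.94 ± 0.15 (SE) between Sirt2-/- and Control (adjusted p = 0.0145, edgeR) and -1.11 ± 0.15 between Sirt2-/-/CE and CE (adjusted p = 0.0043, edgeR; 0.0847 with only these groups in the fit). Per3, a clock repressor of the PER family, was lowest in 4 libraries, at 1.01 CPM in CE replicate 9, 0.425 and 0.573 CPM in Sirt2-/- replicates 14 and 15 and 0.845 CPM in Sirt2-/-/CE replicate 19, against 6.08 to 30.3 CPM in the other 16 mice. Not all clock genes set these libraries apart, since Cry1 was at 6.87 to 11.4 CPM in them and at 5.98 to 41.3 CPM in the others. They were not removed together, because that choice would rest on the outcome.

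In the Control group, Bhlhe40, Tef and Dbp were the output genes with the highest levels per length, at 59.1 ± 31.2, 46.2 ± 6.83 and 45.6 ± 7.66 FPKM (fragments scaled to gene length and library total, mean ± SD, n = 5). The means of these 3 lay within the SD of Bhlhe40. Usp2 followed at 16.8 ± 3.51 FPKM, then Ciart at 12.2 ± 6.02, Hlf at 10.2 ± 3.63 and Nfil3 at 8.19 ± 5.37 FPKM, and from Usp2 to Nfil3 each neighbour differed by less than the larger SD of the pair. Bhlhe41 was far below the others at 0.573 ± 0.0696 FPKM, and its counts per library ranged from 11 to 224. Over the 20 mice, Dbp varied 305-fold, Ciart 266-fold, Usp2 41.5-fold, Bhlhe41 16.3-fold, Bhlhe40 16-fold and Tef 13.5-fold in CPM between the highest and the lowest mouse, whereas Nfil3 varied 6.04-fold and Hlf 2.85-fold. Sirt2-/- replicate 14 was the lowest mouse for 5 of the 8 genes.

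Dbp was higher in each of the Control mice than in each mouse of the other 3 groups. Control mice had 98.9, 78.1, 89.6, 71.6 and 96.1 CPM, and CE mice had 18.8, 14, 43.5, 4.32 and 65.4 CPM. Sirt2-/- mice had 37.9, 45.5, 66.8, 0.325 and 0.358 CPM, and Sirt2-/-/CE mice had 13, 21.8, 48.1, 2.46 and 15.1 CPM. The Control mice lay within 1.38-fold of each other, while the highest and lowest mouse differed 15.2-fold in CE, 206-fold in Sirt2-/- and 19.5-fold in Sirt2-/-/CE. The 2 lowest Sirt2-/- mice had 13 and 15 reads of Dbp, whereas Sphk2, which overlaps it on the other strand, had at least 1158 reads in each library. Log2 fold changes from Control were -1.57 ± 0.96 (SE) in CE, -1.53 ± 0.96 in Sirt2-/- and -2.11 ± 0.98 in Sirt2-/-/CE, and the adjusted p-values were 0.614, 0.488 and 0.432 (edgeR's quasi-likelihood test with Benjamini-Hochberg adjustment over all genes tested), so that Dbp was not called in any of them. With 1 mouse left out, the value in Sirt2-/-/CE ran from -2.73 (without Sirt2-/-/CE replicate 18) to -1.825 (without Sirt2-/-/CE replicate 19). That in CE ran from -2.10 (without CE replicate 10) to -1.295 (without CE replicate 9). All genes tested with no overlap and lower values than Control made up 1.27% in CE, 2.16% in Sirt2-/- and 1.26% in Sirt2-/-/CE.

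Tef was lowest in the same 4 mice as Dbp, with a narrower range. Control mice had 218, 205, 201, 167 and 176 CPM and CE mice 133, 154, 158, 48.1 and 127 CPM, without overlap. Sirt2-/- mice had 148, 164, 183, 17.4 and 16.1 CPM and Sirt2-/-/CE mice 108, 170, 115, 43.5 and 141 CPM, and in each of these groups 1 mouse lay within the Control range. The log2 fold change was -0.65 ± 0.53 (SE) in CE (adjusted p = 0.725, edgeR), -0.87 ± 0.53 in Sirt2-/- (adjusted p = 0.464, edgeR) and -0.75 ± 0.53 in Sirt2-/-/CE (adjusted p = 0.652, edgeR) against Control. Hlf, the third PAR bZIP activator, overlapped between all groups. Its means were 53.9 ± 16.9 CPM (SD, n = 5) in Control, 48.3 ± 12.9 in CE, 46.8 ± 17.9 in Sirt2-/- and 47.0 ± 15.1 in Sirt2-/-/CE. The log2 fold changes of Hlf from Control were -0.16 to -0.21 with a SE of 0.28, and the 95% confidence interval in Sirt2-/- ran from -0.79 to 0.38. With 1 mouse left out, the values of Hlf reached -0.02 in CE (without Control replicate 1), -0.05 in Sirt2-/- (without Sirt2-/- replicate 14) and -0.06 in Sirt2-/-/CE (without Sirt2-/-/CE replicate 19).

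Nfil3, the repressor at D-boxes, was the one gene of the set with a positive log2 fold change in all 3 groups against Control. Control mice had 9.35, 14.9, 40.3, 15.1 and 11.6 CPM, and CE mice had 18.5, 26.2, 56.3, 35.2 and 11.9 CPM. Sirt2-/- mice had 14.5, 11.6, 14, 26.8 and 24.6 CPM, and Sirt2-/-/CE mice had 27.2, 15.1, 9.33, 18.9 and 25.7 CPM. The groups overlapped, and replicate 3 of Control and replicate 8 of CE were the highest mice of their groups. Its log2 fold change was 0.70 ± 0.42 (SE) in CE (adjusted p = 0.605, edgeR), 0.01 ± 0.42 in Sirt2-/- and 0.08 ± 0.42 in Sirt2-/-/CE. The sign in Sirt2-/- and Sirt2-/-/CE turned when 1 mouse was left out, and the value in CE ranged from 0.33 without CE replicate 8 to 1.22 without Control replicate 3.

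**Figure D1:**
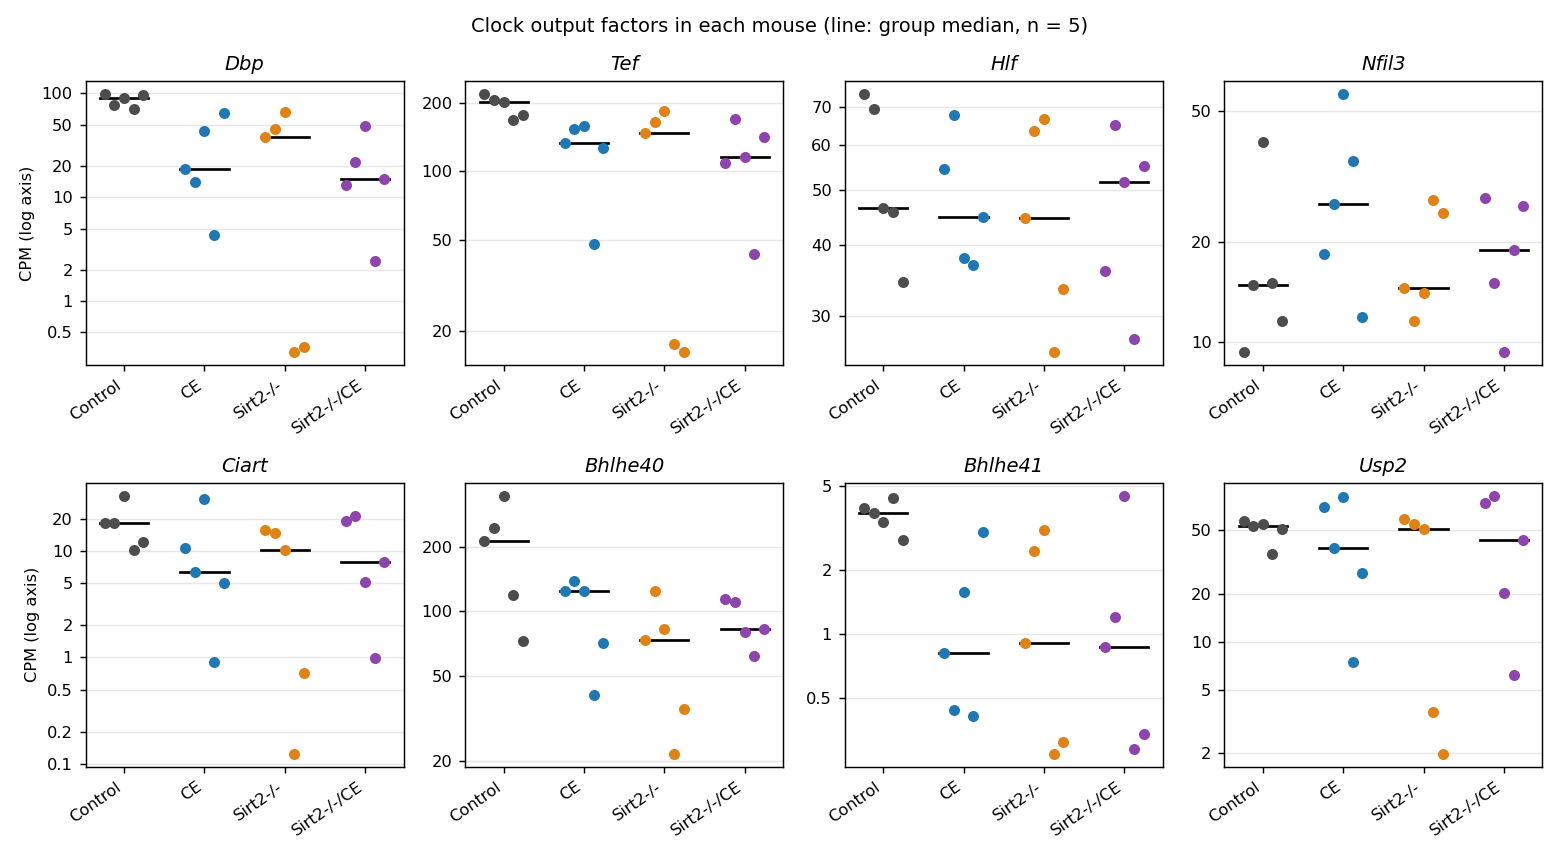
CPM of the 8 clock output genes (log axis) in each of the 20 mice by group, with 1 point per mouse and a line at the group median. The Dbp points of Control, 71.6 to 98.9 CPM, lie above those of all other groups, and the 2 lowest Sirt2-/- points are at 0.325 and 0.358 CPM.

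Bhlhe40, a repressor of CLOCK and BMAL1 that also responds to hypoxia and hormones, had the lowest adjusted p of the set. Control mice had 213, 244, 346, 119 and 72.9 CPM, and CE mice had 124, 139, 124, 40.9 and 71.4 CPM. Sirt2-/- mice had 73.3, 124, 82.8, 21.7 and 35.2 CPM, and Sirt2-/-/CE mice had 114, 110.1, 80.2, 62.2 and 82.7 CPM. Control replicates 1 to 3 were above every mouse of the other groups, while replicates 4 and 5 overlapped with them. The log2 fold change from Control was -1.56 ± 0.44 (SE) in Sirt2-/-, with a 95% confidence interval from -2.48 to -0.64, and 5 of 5 mice were below the Control mean. It missed the threshold in edgeR (adjusted p = 0.0862) and passed it in DESeq2, where the log2 fold change was -1.57 (adjusted p = 0.0107) and 3.89% of all genes were called. In CE it was -0.995 ± 0.435 (adjusted p = 0.421, edgeR), and in Sirt2-/-/CE -1.15 ± 0.44 (adjusted p = 0.304, edgeR).

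Bhlhe41, its paralogue, was low throughout. Control mice had 3.92, 3.71, 3.35, 4.36 and 2.77 CPM and CE mice 0.82, 0.441, 1.58, 0.413 and 3.02 CPM. Sirt2-/- mice had 0.908, 2.46, 3.09, 0.275 and 0.311 CPM and Sirt2-/-/CE mice 0.869, 1.21, 4.49, 0.29 and 0.338 CPM. In each of the other 3 groups, 1 mouse was above the lowest Control mouse and the other 4 were below it. The log2 fold changes from Control were -1.54 ± 0.74 (SE), -1.37 ± 0.73 and -1.33 ± 0.73 in CE, Sirt2-/- and Sirt2-/-/CE, with adjusted p-values of 0.467, 0.394 and 0.518 (edgeR). With 1 mouse left out, the value in CE ran from -2.15 (without CE replicate 10) to -1.31 (without CE replicate 9). That in Sirt2-/- ran from -1.87 (without Sirt2-/- replicate 13) to -1.10 (without Sirt2-/- replicate 14). That in Sirt2-/-/CE ran from -2.41 (without Sirt2-/-/CE replicate 18) to -1.07 (without Sirt2-/-/CE replicate 19).

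Ciart and Usp2 shared the mice at which they were lowest. Ciart was at 18.5, 18.4, 33.2, 10.3 and 12.2 CPM in Control mice and at 10.8, 6.34, 30.8, 0.908 and 5.03 CPM in CE mice. It was at 15.6, 14.8, 10.1, 0.125 and 0.717 CPM in Sirt2-/- mice and at 19.3, 21.5, 5.08, 0.989 and 7.95 CPM in Sirt2-/-/CE mice. Control overlapped with each other group, and 1 mouse of CE, 2 of Sirt2-/- and 1 of Sirt2-/-/CE were below 1 CPM. The log2 fold changes of Ciart from Control were -0.78 ± 0.91 (SE), -1.16 ± 0.92 and -0.76 ± 0.91 in CE, Sirt2-/- and Sirt2-/-/CE, with adjusted p-values of 0.832, 0.6 and 0.815 (edgeR). With 1 mouse left out, the value of Ciart in CE ran from -1.69 (without CE replicate 8) to -0.47 (without Control replicate 3), that in Sirt2-/- from -1.53 (without Sirt2-/- replicate 11) to -0.85 (without Sirt2-/- replicate 14), and that in Sirt2-/-/CE from -1.18 (without Sirt2-/-/CE replicate 17) to -0.44 (without Control replicate 3). Usp2 was at 57.2, 53.5, 54.4, 35.5 and 50.7 CPM in Control mice and at 69.7, 38.9, 80.7, 7.43 and 26.8 CPM in CE mice. It was at 58.4, 54.8, 50.7, 3.62 and 1.98 CPM in Sirt2-/- mice and at 73.8, 82.3, 20.3, 6.15 and 43.4 CPM in Sirt2-/-/CE mice. Single mice of the other groups lay both above and below all Control mice. The log2 fold changes of Usp2 from Control were -0.17 ± 0.75 (SE) in CE, -0.57 ± 0.76 in Sirt2-/- and -0.15 ± 0.75 in Sirt2-/-/CE. With 1 mouse left out, the value of Usp2 in Sirt2-/- ran from -0.86 (without Sirt2-/- replicate 11) to -0.26 (without Sirt2-/- replicate 15), and the values in CE and Sirt2-/-/CE turned positive, to 0.10 without CE replicate 9 and 0.13 without Sirt2-/-/CE replicate 19.

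**Figure D2:**
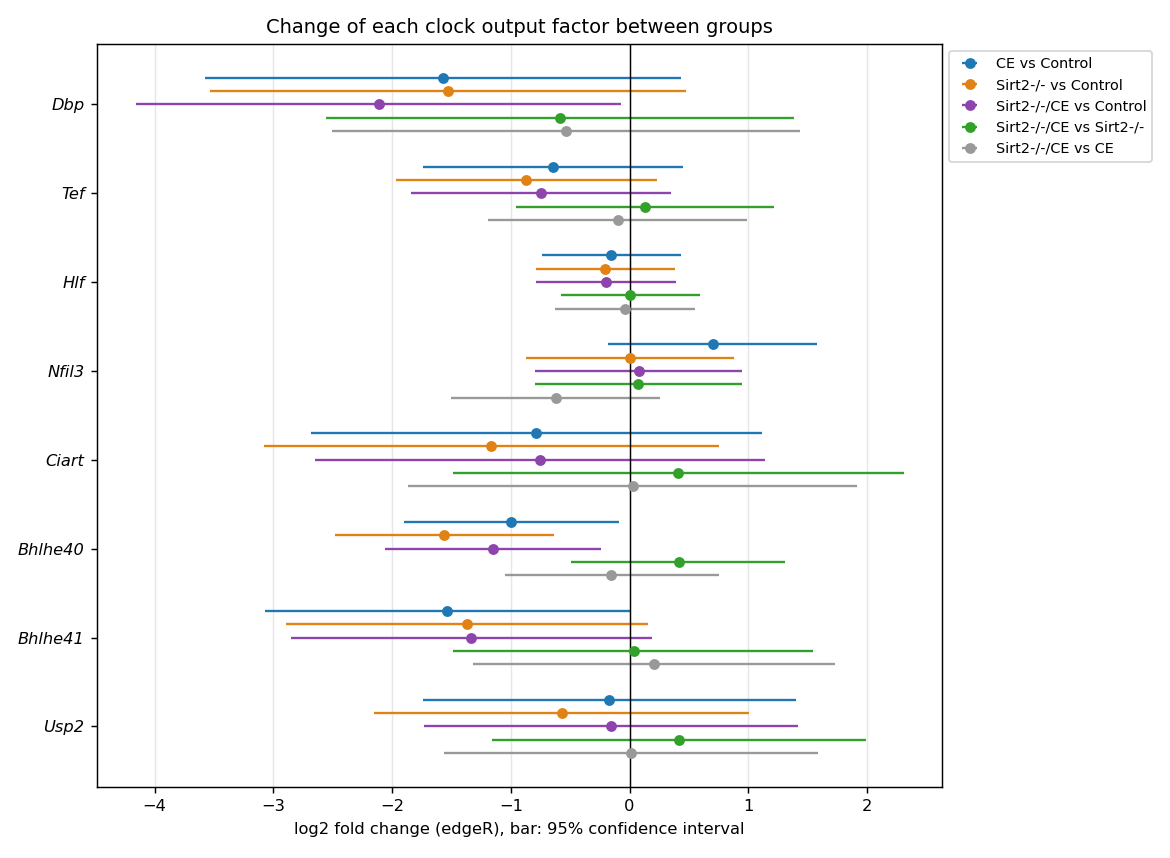
Log2 fold change of each clock output gene (horizontal axis) in the 5 comparisons of groups, with bars for the 95% confidence interval from edgeR. Bhlhe40 in Sirt2-/- against Control (-2.48 to -0.64) is the estimate whose interval ends farthest below 0, and the intervals of Hlf are the narrowest.

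Across the set, the comparison of CE with Control, which asks what repeated cold does in wild-type liver, called 0 of the 8 genes in edgeR at an adjusted p under 0.05, where 0.0064% of all genes were called. At an unadjusted p under 0.05 it was 1 of 8 (Bhlhe40, lower), against 10.7% of all genes. The median log2 fold change of the 8 genes was -0.71, and that of all genes was -0.008. The groups did not overlap for 2 of 8, Dbp and Tef, both lower, where the share of all genes was 1.27%, and for 0 on the higher side, where it was 1.75%.

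Between Sirt2-/- and Control, the comparison for the deletion without cold, edgeR called 0 of 8 genes against 0.89% of all genes, and 1 of 8 had an unadjusted p under 0.05 (Bhlhe40, lower) against 14.9%. DESeq2 called 1 of 8 (3.89% of all genes), and limma voom with sample quality weights called 0 of 8 (906 of all 15616 genes). The median log2 fold change was -1.02, beside 0.017 over all genes, and 7 of 8 had a negative value. Dbp alone did not overlap on the lower side (1 of 8, and 2.16% of all genes), and 0 of 8 on the higher side (1.45% of all genes). The log2 fold change of Dbp was -1.21 without Sirt2-/- replicate 14, -1.20 without replicate 15 and -2.05 without replicate 13, and with limma it was -2.02 under voom (adjusted p = 0.208) and -2.52 on log2(FPKM + 1) (adjusted p = 0.133). Between Sirt2-/-/CE and Control, 0 of 8 genes were called in edgeR (0.122% of all genes), and 2 had an unadjusted p under 0.05 (Dbp and Bhlhe40, both lower; 11.2% of all genes). The median log2 fold change was -0.75 against 0.033, and Dbp was the 1 gene without overlap on the lower side (1.26% of all genes), with 0 on the higher side (1.45% of all genes). These 3 comparisons share the Control mice.

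For cold in the deletion mice, given by Sirt2-/-/CE against Sirt2-/-, the estimates of the set lay on both sides of 0 with wide intervals. In edgeR, 0 of 8 genes were called (0% of all genes) and 0 had an unadjusted p under 0.05 (7.25% of all genes), with a median log2 fold change of 0.10. The estimates ran from -0.58 for Dbp (95% confidence interval -2.56 to 1.39) to 0.42 for Usp2 (-1.16 to 1.99). With 1 mouse left out, Dbp ran from -1.20 (without Sirt2-/-/CE replicate 18) to -0.06 (without Sirt2-/- replicate 13) and Usp2 from 0.06 (without Sirt2-/-/CE replicate 17) to 0.70 (without Sirt2-/- replicate 11). None of the 8 were without overlap (0.307% of all genes on the lower and 0.435% on the higher side). The deletion in cold-exposed mice, given by Sirt2-/-/CE against CE, likewise had 0 of 8 genes called in edgeR (0.0128% of all genes) and 0 at an unadjusted p under 0.05 (6.09% of all genes). The median log2 fold change was -0.07, from -0.62 for Nfil3 (95% confidence interval -1.50 to 0.26) to 0.21 for Bhlhe41 (-1.32 to 1.73). With 1 mouse left out, Nfil3 ran from -0.82 (without CE replicate 10) to -0.25 (without CE replicate 8) and Bhlhe41 from -0.88 (without Sirt2-/-/CE replicate 18) to 0.82 (without CE replicate 10). None were without overlap (0.41% of all genes lower, 0.813% higher).

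The interaction, which tests whether the response to cold differed between the genotypes, was not called for any of the 8 genes in edgeR (0% of all genes). At an unadjusted p under 0.05 there was 1 of 8, Bhlhe40, against 8.34% of all genes. Bhlhe40 had a log2 fold change of -0.995 ± 0.435 (SE) in CE against Control and of 0.41 ± 0.43 in Sirt2-/-/CE against Sirt2-/-, and the difference of the 2 was 1.41 ± 0.61 (adjusted p = 0.55, edgeR). The interaction estimates of the other genes ran from -0.63 for Nfil3 to 1.57 for Bhlhe41, with a median of 0.88 over the set beside 0.002 over all genes. With 1 mouse left out, the interaction of Bhlhe41 ran from 0.49 (without Sirt2-/-/CE replicate 18) to 2.19 (without CE replicate 10), that of Nfil3 from -1.14 (without Control replicate 3) to -0.25 (without CE replicate 8) and that of Bhlhe40 from 1.12 (without Control replicate 3) to 1.75 (without Sirt2-/- replicate 12).

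The spread between mice of a group also differed by gene and group. In Control, the SD of log2 CPM was 0.20 for Dbp, 0.16 for Tef, 0.28 for Usp2 and 0.24 for Bhlhe41. In CE the same genes had SDs of 1.52, 0.71, 1.37 and 1.17, in Sirt2-/- 3.83, 1.81, 2.39 and 1.53, and in Sirt2-/-/CE 1.56, 0.76, 1.54 and 1.51. In the order Control, CE, Sirt2-/- and Sirt2-/-/CE, Ciart had SDs of 0.65, 1.83, 2.96 and 1.78. In that order, Bhlhe40 had 0.89, 0.75, 1.01 and 0.36, Nfil3 had 0.81, 0.86, 0.53 and 0.63, and Hlf had 0.46, 0.37, 0.59 and 0.51. For Bhlhe40, Nfil3 and Hlf, Control was thus not the group with the smallest SD. Bhlhe40 and Hlf, like Dbp, had their largest SD in Sirt2-/-. Pooled within groups, the SD was 2.21 for Dbp, 1.98 for Ciart and 1.58 for Usp2, which were the 99.5th, 99.3rd and 98.4th percentiles of all genes tested, whereas Hlf with 0.49 was at the 56.6th percentile. The median over all genes was 0.429. No test of the difference in spread was made. The edgeR fit shared its estimate of spread for each gene over all 20 libraries. Its p-values between groups therefore also carry the spread of the groups not compared.

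The output genes were next set against Arntl, whose transcript peaks when most of them are low. Arntl was at 0.437, 0.85, 0.123, 3.28 and 0.537 CPM in Control mice and at 6.97, 11.9, 0.905, 20.8 and 3.13 CPM in CE mice. It was at 2.02, 5.13, 1.48, 15.5 and 25.9 CPM in Sirt2-/- mice and at 8.07, 5.89, 5.37, 15.5 and 7.2 CPM in Sirt2-/-/CE mice. The highest levels were in CE replicate 9, Sirt2-/- replicates 14 and 15 and Sirt2-/-/CE replicate 19, at 15.5 to 25.9 CPM, the mice with the lowest Dbp, Tef and Usp2. Over the 20 mice, Pearson's r of log2 CPM with Arntl was -0.78 for Dbp, with Spearman's rho of -0.93 (permutation p = 4e-05 and 1e-05, the latter the smallest that the resamples can give; adjusted over all 15615 genes, 0.0078 and 0.0054). For Tef, r was -0.71 and rho -0.85 (permutation p = 0.00067 and 1e-05; adjusted 0.03 and 0.0054), and for Bhlhe41, r was -0.75 and rho -0.79 (permutation p = 0.00013 and 7e-05; adjusted 0.014 and 0.018). Ciart, with r of -0.71 and rho of -0.69, and Bhlhe40, with r of -0.70 and rho of -0.58, passed on r (permutation p = 0.00062 for both; adjusted 0.029 for both) but not on rho (permutation p = 0.0011 and 0.0085; adjusted 0.073 and 0.16). Usp2, with r of -0.62 and rho of -0.51, did not pass (permutation p = 0.0037 and 0.024; adjusted 0.071 and 0.25). Hlf and Nfil3 did not pass either, with r of -0.34 and 0.14 and rho of -0.42 and 0.39 (permutation p = 0.14 and 0.57 for r and 0.064 and 0.093 for rho; adjusted 0.45 and 0.83 for r and 0.37 and 0.43 for rho). Thus 5 of the 8 genes had a negative r that passed, beside 1.68% of all genes, and 0 a positive one, beside 2.26%.

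The relation with Arntl kept its sign for all 8 genes without the 2 mice farthest from the median of Arntl (Control replicates 1 and 3), where r was -0.81 for Dbp, -0.72 for Tef, -0.70 for Ciart, -0.53 for Bhlhe40, -0.74 for Bhlhe41 and -0.67 for Usp2. With each gene centred on its group mean, r was -0.74, -0.69, -0.73, -0.58, -0.58 and -0.69 for the same genes, and no adjusted p of r or rho was under 0.05. Without the 2 mice, the adjusted permutation p of r was under 0.05 for Dbp (0.033), and that of rho for Dbp (0.01) and Tef (0.04). The groups are the only split of the libraries in the labels. The 4 mice with the most Arntl (15.5 CPM or more) were the 4 with the least Dbp, Tef, Ciart and Usp2, and the next mouse had 11.9 CPM of Arntl. Those 4 mice stayed in when the 2 others, which had the least Arntl, were left out. The relation without those 4 mice was not tested.

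**Figure D3:**
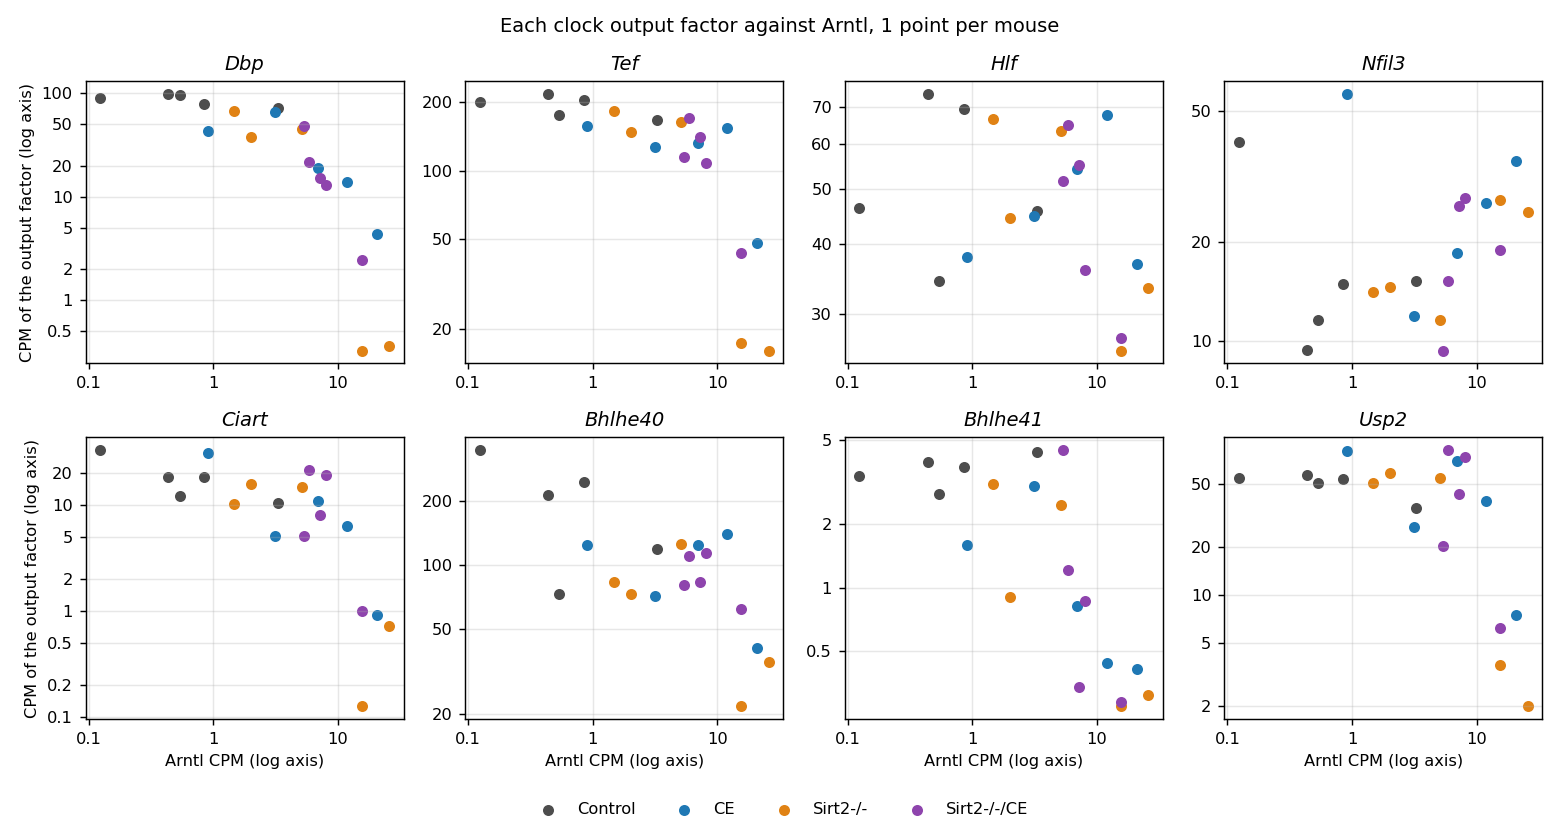
CPM of each clock output gene (vertical, log axis) against those of Arntl (horizontal, log axis), with 1 point per mouse, coloured by group. Dbp descends over the whole range of Arntl, with r = -0.78, and the lowest points of Usp2 and Ciart are the 4 mice at 15.5 to 25.9 CPM of Arntl.

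Over the 28 pairs within the set, r of log2 CPM was highest between Dbp and Tef (0.95) and between Ciart and Usp2 (0.94), and lowest between Nfil3 and Bhlhe41 (-0.52). These are descriptions, since the points share their libraries. The genes most like each of the 8, sought among 10590 that averaged 1 FPKM or more (10591 for Bhlhe41), were named by Pearson's r over the 20 mice. For Dbp they were Tef (0.95), Per3 (0.93) and Upp2 (0.91), a uridine phosphorylase, and for Tef they were Per3 (0.97), Dbp (0.95) and Upp2 (0.95). The gene most opposite to both was Fpgs, the folylpolyglutamate synthase, at -0.92 for Dbp and -0.87 for Tef, and it was also the most opposite to Bhlhe41 (-0.83). For Bhlhe41 the nearest were Dbp (0.86), Osbpl2 (0.83) and Mgrn1 (0.79). Ciart and Usp2 each had the other first (0.94) and also Tef (0.92 and 0.94), with Coq10b (0.93) beside Ciart and Tmem57 (0.94) beside Usp2, and their most opposite genes were Dhrs3 (-0.90) and Amt (-0.92). The remaining 3 had other neighbours. Hlf was nearest to Lrp4 (0.89), Homer2 (0.87) and Baz1b (0.84) and most opposite to Rbpms (-0.87). Nfil3 was nearest to Crem (0.84), the cAMP-responsive modulator, Mt2 (0.78), a metallothionein, and Mettl6 (0.77), and most opposite to Ercc3 (-0.74). Bhlhe40 was nearest to a predicted gene without a name (0.87), Susd1 (0.87) and Nhlrc2 (0.86), and most opposite to Tcta (-0.92).

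**Figure D4:**
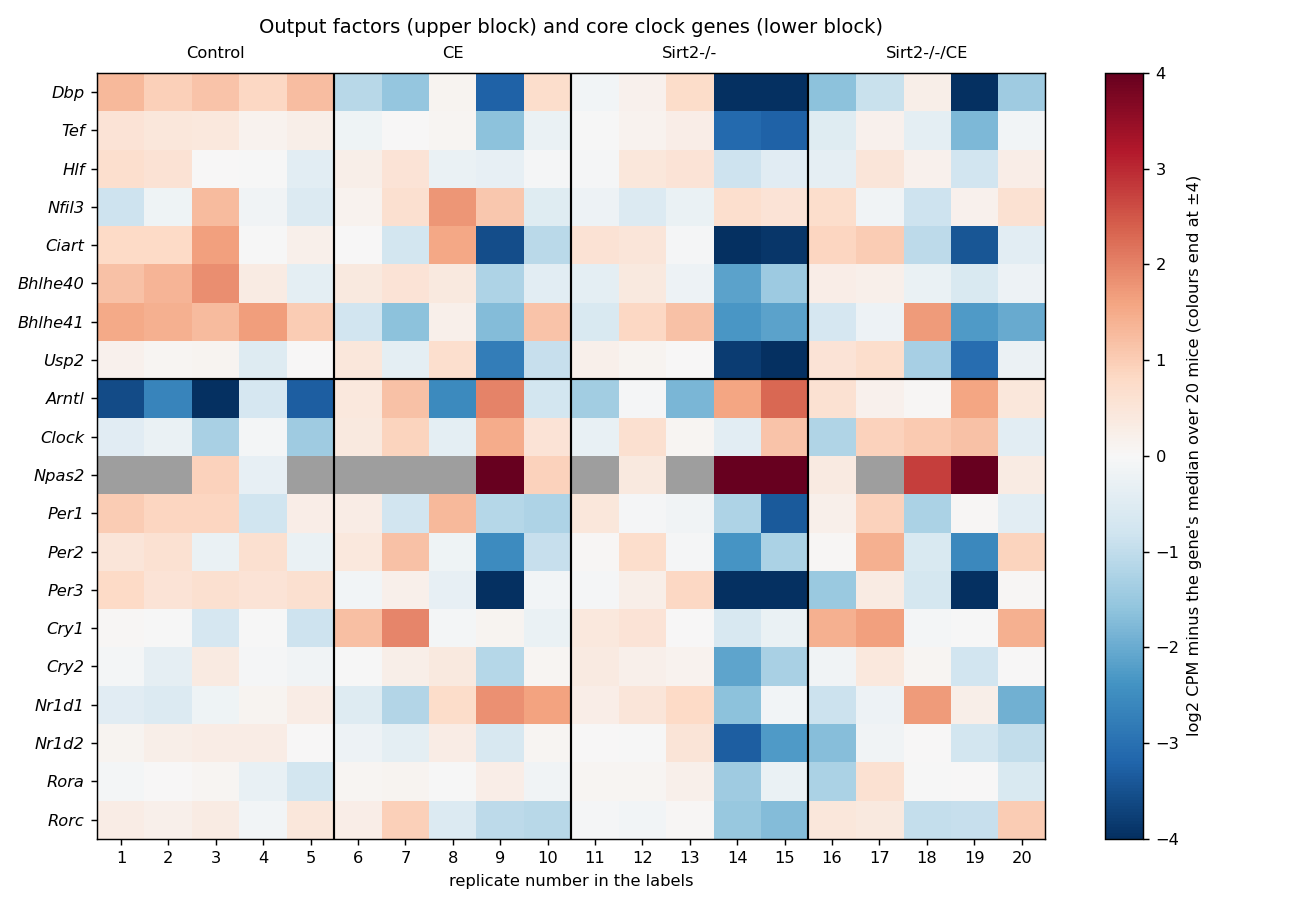
Log2 CPM of the 8 clock output genes (upper block) and of 12 core clock genes (lower block) in each mouse (columns by group, with the replicate number in the labels), minus the median of the gene over 20 mice. Blue is below and red above the median, grey marks a library with no count, and replicates 9, 14, 15 and 19 show the deepest blue for Dbp, Ciart and Usp2 beside red for Arntl and Npas2.

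Of the 18 core clock genes, 0 were called in edgeR in any comparison. At an unadjusted p under 0.05, 4 were higher and 0 lower in CE (10.7% of all genes passed), 4 higher and 0 lower in Sirt2-/- (14.9% of all genes), and 5 higher and 0 lower in Sirt2-/-/CE against Control (11.2% of all genes). Arntl had log2 fold changes of 3.06 ± 0.88 (SE), 3.25 ± 0.89 and 3.0 ± 0.88 in CE, Sirt2-/- and Sirt2-/-/CE (adjusted p = 0.202, 0.0769 and 0.185, edgeR). DESeq2 put all 3 of them under the threshold (adjusted p = 0.0401, 0.00909 and 0.0378), and limma voom that in Sirt2-/-/CE (adjusted p = 0.0489). In edgeR, the value in Sirt2-/- also passed without Control replicate 4 (4.33, adjusted p = 0.0297) or Sirt2-/- replicate 13 (3.53, adjusted p = 0.0407). Clock, the partner of BMAL1, stood at 1.31 ± 0.43, 0.95 ± 0.43 and 1.18 ± 0.43 on the log2 scale against Control (adjusted p = 0.271, 0.299 and 0.288, edgeR). Under limma voom, Clock passed in CE (1.21, adjusted p = 0.0468) and in Sirt2-/-/CE (1.39, adjusted p = 0.0356). Over all 15616 genes, DESeq2 called 188, 607 and 237 in CE, Sirt2-/- and Sirt2-/-/CE against Control. In the same order limma voom called 540, 906 and 341, and edgeR 1, 139 and 19. Npas2, which can stand in for CLOCK, had 0 reads in 9 mice and 52 to 246 reads in CE replicate 9, Sirt2-/- replicates 14 and 15 and Sirt2-/-/CE replicate 19.

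Of 8 genes known as targets of the PAR bZIP factors, 0 were called in any comparison in edgeR, and their median log2 fold changes were -0.19 in CE, -0.31 in Sirt2-/- and -0.17 in Sirt2-/-/CE against Control. At an unadjusted p under 0.05 stood Alas1, the first enzyme of heme synthesis, in CE with a log2 fold change of -1.25 ± 0.55 (SE; adjusted p = 0.419, edgeR), 0 genes in Sirt2-/-, and Cyp3a11, a major drug-oxidizing P450, in Sirt2-/-/CE with 0.68 ± 0.28 (adjusted p = 0.352, edgeR), which is 1, 0 and 1 of 8 beside 10.7%, 14.9% and 11.2% of all genes. Of 8 other clock-controlled liver genes, 1 was called in Sirt2-/- (0.89% of all genes) and in Sirt2-/-/CE (0.122% of all genes) against Control, namely Rgs16, a regulator of G-protein signalling that responds to fasting. Rgs16 was at 159, 97.2, 178, 14.1 and 25.5 CPM in Control mice and at 1.35 to 14.7 CPM in the other 15 mice. Against Control, it fell with a log2 fold change of -3.89 (SE 0.78, adjusted p = 0.034, edgeR) in Sirt2-/- and of -4.58 in Sirt2-/-/CE (SE 0.80, adjusted p = 0.0378, edgeR), and its log2 fold change in CE was -3.97 ± 0.78 (adjusted p = 0.0867, edgeR; 0.000275 in DESeq2, 0.00645 in limma voom and 0.0133 in edgeR without Control replicate 4). Both calls were lost when the fit held only the groups compared (adjusted p = 0.0679 and 0.085). They were also lost without any one of Control replicates 1, 2 and 3, or of Sirt2-/- replicates 12, 14 and 15 in the first comparison (adjusted p = 0.0641 to 0.107) and of Sirt2-/-/CE replicates 16 to 19 in the second (adjusted p = 0.0717 to 0.114). At an unadjusted p under 0.05, 2 of these 8 genes were higher and 2 lower in CE, 1 higher and 2 lower in Sirt2-/-, and 2 higher and 1 lower in Sirt2-/-/CE against Control, beside 10.7%, 14.9% and 11.2% of all genes in either direction.

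The markers of other cell types were read in the same libraries. In Sirt2-/-/CE against CE, 5 of 5 sinusoidal endothelial and 4 of 4 measured Kupffer cell markers were higher at an unadjusted p under 0.05 (6.09% of all genes in either direction), and 0 after adjustment in edgeR. The endothelial list summed to 42.0 to 180.1 CPM in Control, 28.4 to 129 in CE, 75.3 to 205 in Sirt2-/- and 135 to 222 in Sirt2-/-/CE, and the Kupffer cell list to 75.7 to 257, 75.0 to 292, 161 to 301 and 208 to 343 CPM. The hepatocyte list (6 genes) summed to 103600 to 165300 CPM in Control, 90660 to 125100 in CE, 74910 to 120800 in Sirt2-/- and 85570 to 162100 in Sirt2-/-/CE. In the same order of groups, cholangiocyte markers (5 genes) summed to 37.5 to 76.8, 36.2 to 66.0, 28.5 to 43.4 and 23.4 to 39.6 CPM, and stellate cell markers (5 genes) to 83.5 to 183, 28.9 to 148, 76.2 to 206 and 127 to 178 CPM. Most of the cholangiocyte sum was Spp1, with means of 48.9, 44.5, 29.4 and 27.7 CPM in that order. Krt19 and Krt7 had higher means in Sirt2-/- and Sirt2-/-/CE than in Control, while Epcam and Sox9 had lower ones. Erythrocyte markers (3 genes) summed to 233 to 399, 151 to 313, 103.5 to 355 and 157 to 585 CPM, and lymphocyte markers (4 genes) to 0.516 to 3.78, 0.650 to 1.59, 1.28 to 1.89 and 0.430 to 1.76 CPM. Of 4 exocrine pancreas markers, Cpa1, Pnlip and Ctrb1 had no read in 17 mice or more. Their reads lay in Control replicates 1 and 2, apart from 2 reads of Ctrb1 in Sirt2-/-/CE replicate 16. Cela2a was at 9.64 CPM in CE replicate 8, at 8.42 and 5.07 CPM in Sirt2-/- replicates 14 and 15, and at 0.205 to 2.17 CPM in the other 17. Sirt2-/- replicates 14 and 15 had the lowest Dbp, whereas CE replicate 8 had more Dbp than most CE mice. The part of cell composition in the levels of the output genes was not tested.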

How the data were processed

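Liver mRNA of 20 mice was enriched with oligo(dT), copied with random hexamers and sequenced on an Illumina NovaSeq instrument by the authors. The authors deposited whole-number counts per gene and mouse and FPKM values, the latter scaled by the authors to gene length and depth; the submitters' processing notes name mm10, and the aligner, the counting tool and strand handling are not given in the sources used here. Of the table, 9 lines without a gene were left out, and 0 columns belonged to no sample. Counts were filtered with filterByExpr by group (minimum count 10, minimum total 15; 15616 genes kept), scaled by TMM and fitted over 20 libraries with edgeR 4.0.16 in R 4.3.3 (quasi-likelihood test, two-sided, Benjamini-Hochberg adjustment, threshold 0.05). The test was run on simulated data with known changes first. Depth was 35499796 to 53917339 counts per library.

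The output genes and the lists (core clock, targets of PAR bZIP factors, other clock-controlled liver genes, bZIP and bHLH relatives, cell markers) were chosen with earlier results of these data known. Named genes were Sirt2, the 8 genes, those of the 4 gene lists, and for each of the 8 the 3 genes with the highest and the 1 with the lowest r over 20 mice. Correlations used log2 CPM (prior count 2) and two-sided permutation tests of 100000 resamples, adjusted over all genes. Alternatives were DESeq2 1.42.0, limma 3.58.1 (voom, or limma-trend on log2(FPKM + 1)), other scalings and filters, the groups compared alone, and each mouse left out. Positions came from GENCODE vM21, near-identical genes from BLAST+ 2.17.0, and figures from matplotlib 3.10.9 under Python 3.11.15. No RefSeq window was used for Bhlhe40.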

Additional observations from a re-analysis of the deposited data

Results flagged for a closer look

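Among the groups of 5 mice, Tef in CE had 1 mouse far below the others: replicate 9 had 48.1 CPM, and the next lowest had 127 CPM. Usp2 in Control was also set apart by its lowest mouse, replicate 4, with 35.6 CPM, where the other 4 had 50.7 to 57.2 CPM. The gap was judged on log2 CPM by Dixon's test at its 95% critical value of 0.71, which chance passes in about 1 of 20 groups, and 32 groups (8 genes in 4 groups) were looked at. The gap over the range was 0.815 for Tef and 0.744 for Usp2 on that scale. On CPM itself, a scale added after seeing the data, it was 0.717 for Tef in CE and 0.696 for Usp2 in Control, so that Usp2 no longer passed, while Nfil3 in Control (0.813) and Bhlhe41 in Sirt2-/-/CE (0.782) did, each for its highest mouse.

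For Bhlhe40, the estimates for cold had opposite signs in the 2 genotypes, and neither passed the test: the log2 fold change was -0.995 ± 0.435 (SE) in CE against Control (adjusted p = 0.421, edgeR) and 0.41 ± 0.43 in Sirt2-/-/CE against Sirt2-/- (adjusted p = 0.919, edgeR). Under limma voom the latter was -0.04. In edgeR with 1 mouse left out, the former ran from -1.20 (without Control replicate 5) to -0.70 (without Control replicate 3). The latter ran from 0.19 (without Sirt2-/- replicate 14) to 0.755 (without Sirt2-/- replicate 12). On the log2 CPM scale every CE mouse was below the Control mean, and every Sirt2-/-/CE mouse was above the Sirt2-/- mean. On CPM itself the latter held for 4 of 5 mice, as the lowest had 62.2 CPM and the Sirt2-/- mean was 67.5 CPM. The interaction of genotype and cold for Bhlhe40 was 1.41 on the log2 scale (SE 0.61, unadjusted p = 0.0325, adjusted p = 0.55 in the edgeR fit over all genes).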

How the results depend on the processing

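No gene of the set was called under an alternative other than DESeq2, which called 1 gene, Bhlhe40, in Sirt2-/- against Control. Over the other settings with all mice, 349 fold changes of the set kept their sign and side of the threshold and 20 turned in sign, all for estimates whose interval held 0, as follows (log2 scale). With limma voom and sample quality weights, in Sirt2-/-/CE against Sirt2-/- Tef had -0.302, Hlf had -0.244, Ciart had -0.898, Bhlhe40 had -0.04, Bhlhe41 had -0.318 and Usp2 had -0.74, and in Sirt2-/-/CE against CE Ciart had -0.321 and Usp2 had -0.694, and in the interaction Usp2 had -0.088. With library size alone as the scaling, in Sirt2-/-/CE against Sirt2-/- Hlf had -0.048 and Nfil3 had -0.038, and in Sirt2-/-/CE against CE Tef had 0.015 and Hlf had 0.062. With at least 10 counts required in every library, in Sirt2-/-/CE against Sirt2-/- Hlf had -0.003, and in Sirt2-/-/CE against CE Usp2 had -0.008. With limma-trend on log2(FPKM + 1), in Sirt2-/-/CE against Sirt2-/- Dbp had 0.192, Hlf had -0.023, Nfil3 had -0.027 and Bhlhe41 had -0.009, and in Sirt2-/-/CE against CE Bhlhe40 had 0.024. When each mouse was left out in turn, the values with a turn of sign ranged as follows. In CE against Control, Usp2 ranged from -0.495 to 0.104. In Sirt2-/- against Control, Nfil3 ranged from -0.172 to 0.518. In Sirt2-/-/CE against Sirt2-/-, Tef ranged from -0.164 to 0.42, Hlf ranged from -0.151 to 0.169, Nfil3 ranged from -0.083 to 0.252, Ciart ranged from -0.016 to 0.771 and Bhlhe41 ranged from -1.05 to 0.542. In Sirt2-/-/CE against CE, Tef ranged from -0.307 to 0.111, Hlf ranged from -0.209 to 0.114, Ciart ranged from -0.405 to 0.931, Bhlhe41 ranged from -0.878 to 0.82 and Usp2 ranged from -0.35 to 0.341. In Sirt2-/-/CE against Control, Nfil3 ranged from -0.087 to 0.597 and Usp2 ranged from -0.508 to 0.129. In the interaction, Hlf ranged from 0 to 0.328. Pearson's r with Arntl lost its call without the 2 mice farthest from the median of Arntl for Tef (r = -0.721), Ciart (-0.695), Bhlhe40 (-0.528) and Bhlhe41 (-0.745), while rho of Tef still passed (adjusted permutation p = 0.04). It lost it with group means taken out for Dbp (-0.735), Tef (-0.691), Ciart (-0.728), Bhlhe40 (-0.576) and Bhlhe41 (-0.58), and Usp2 gained it on log2(FPKM + 1) (-0.748). The cause was not tested for any of these. Over all genes, the count of calls in Sirt2-/- against Control was 139, from 29 to 906 under other settings and from 5 to 375 without 1 mouse; the lowest was without Control replicate 2 and the highest without Sirt2-/- replicate 13. In CE against Control it was 1, from 0 to 540 under other settings and from 0 (without Control replicate 1) to 68 (without Control replicate 4) without 1 mouse. In Sirt2-/-/CE against Control it was 19, from 3 to 341, and from 0 (without Control replicate 1) to 67 (without Control replicate 4). For Sirt2-/-/CE it was 0 (0 to 7; 0 without each mouse) against Sirt2-/- and 2 (0 to 31; 1 without CE replicate 8 to 6 without CE replicate 6) against CE, and it was 0 (0 to 41; up to 2 without Control replicate 4) for the interaction. No paired analysis was possible because the groups share no replicate numbers.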

Other observations

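Relatives of the output genes by protein family, the C/EBP factors (Cebpa, Cebpb, Cebpd and Cebpg) and the HES and ID proteins (Hes1, Hes6, Id1, Id2 and Id3), had 0 of 9 genes called in edgeR in each of the 6 tests. Against Control, 2 were lower at an unadjusted p under 0.05 in CE, 1 was higher in Sirt2-/- and 1 was lower in Sirt2-/-/CE, beside 10.7%, 14.9% and 11.2% of all genes in either direction. In CE these were Id1, an inhibitor of bHLH factors, with a log2 fold change of -1.80 ± 0.64 (SE; adjusted p = 0.3, edgeR), and Id2 with -0.82 ± 0.38 (adjusted p = 0.447, edgeR); without Control replicate 3 these were -0.89 and -0.49. In Sirt2-/- it was Hes1, with 1.09 ± 0.44 (adjusted p = 0.239, edgeR; 0.55 as the fold change without Sirt2-/- replicate 14), and in Sirt2-/-/CE it was Id2, with -0.98 ± 0.38 (adjusted p = 0.32, edgeR). Id2 was highest in Control replicate 3 (183 CPM), the mouse that also had the highest Bhlhe40, Ciart and Id1 (346, 33.2 and 32.5 CPM) and the lowest Arntl (0.123 CPM). Cebpg, by contrast, stayed between 36.4 and 61.8 CPM in all 20 mice.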
